A study of Mus musculus with 6 samples.

Results

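A set of 10 transcriptional targets of the tumour suppressor p53 was followed in BV2 cells, an immortalized mouse microglial line. The genes were picked by symbol (Cdkn1a, Ccng1, Plk2, Plk3, Rrm2b, Phlda3, Zmat3, Bax, Bbc3 and Aen), and all 10 were among the 22672 genes listed in each library. The series holds 6 RNA sequencing libraries, 3 labelled shNumb-ctr and 3 labelled shscr-ctr. By the usual reading these are cells with a hairpin against Numb and cells with a scrambled hairpin; both groups are BV2 cells, no label names a treatment, a clone or a hairpin sequence, and the suffix ctr is not explained. No label states that replicates came from separate cultures, so the p-values reflect the spread among these 6 libraries, which may be technical.

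p53 is a transcription factor that is held low by the ubiquitin ligase Mdm2 and accumulates after DNA damage and other stresses. Its targets stop the cell cycle, help to repair DNA, or trigger apoptosis at the mitochondrion, and Mdm2 is itself a target, which closes a feedback loop. In human cells the adaptor protein NUMB has been reported to bind p53 and MDM2 and to slow the degradation of p53, which is background to looking at these genes in libraries labelled shNumb-ctr.

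Of the 10 target genes, Plk2, Plk3 and Rrm2b rose in libraries labelled shNumb-ctr over libraries labelled shscr-ctr, by 1.54-, 1.36- and 1.23-fold in mean FPKM (a fragment count scaled by transcript length and library depth). Cdkn1a, Bax, Bbc3, Ccng1, Zmat3 and Aen did not pass the threshold in either direction, and Phlda3 was listed at 0 in all 6 libraries. Trp53, the gene for p53, fell to 0.898 of its shscr-ctr level. Calls are from limma on log2(FPKM + 1) across 10594 genes, with a Benjamini-Hochberg adjusted p under 0.05. In that fit, 8.11% of all tested genes were called higher in libraries labelled shNumb-ctr and 10.7% lower. Of the 9 target genes tested 3 were higher and 0 lower (0 lower also at an unadjusted p under 0.05), with a median log2 fold change of 0.10 against -0.02 over all tested genes. Among the target genes, only the call for Plk2 held in every alternative setting that was run. In bulk RNA, fewer cells with a transcript and less transcript per cell cannot be told apart.

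The libraries were alike in size and content. Deposited values summed to between 453082 and 455561 in libraries labelled shNumb-ctr and between 451077 and 453631 in those labelled shscr-ctr. The hairpin's namesake, Numb, was not reduced under its label, at 38.4 ± 1.44 against 36.2 ± 0.455 FPKM (SD, n = 3, log2 fold change 0.08, limma adjusted p = 0.137). Numb thus goes against the label, and every direction given here is that of the labels. Of 16 microglial markers, 11 were tested, among them Cd68, Tyrobp and Trem2, and their summed level was 1428 to 1558 FPKM in libraries labelled shNumb-ctr against 1324 to 1365 FPKM in those labelled shscr-ctr. Sall1 was listed at 0 throughout, and the homeostatic marker P2ry12 was at 1.09 FPKM or less. Trem2, Tyrobp, Cx3cr1 and Cd68 were among those called higher, and Csf1r was called lower; Itgam, also called higher, is uncertain because other genes hold 72.2% of its transcript windows. The summed markers of astrocytes, neurons, endothelial cells and fibroblasts reached 0.750 FPKM at most, with Gfap, Aqp4, Rbfox3, Map2, Cldn5 and Dcn at 0, and those of oligodendrocytes 2.37 FPKM. One library labelled shNumb-ctr, replicate 2, stood apart in stimulation genes, with Il1b at 4.14 FPKM against at most 0.810 FPKM in the other libraries. Without that library 2 target genes were called higher, Plk2 and Plk3, and 0 lower.

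The upstream sequences of the called kinase genes are shown, with the matches to letters p53 is known to bind in the windows of other target genes. RefSeq windows (build GRCm38.p6; the authors' build is not given in the sources used here) were found for 8 of the 10 genes, all but Rrm2b and Zmat3. The 250 bases before the most upstream start were searched on both strands for the p53 decamer known as the p53 half-site, for a p53 site of 2 such decamers side by side with at most 2 mismatches outside their cores, for the CArG box and for the cAMP response element TGACGTCA. Capitals mark matches, and each sequence runs 5′ to 3′ on the strand of the gene.
Plk2, chr13:110394794-110395043, plus strand: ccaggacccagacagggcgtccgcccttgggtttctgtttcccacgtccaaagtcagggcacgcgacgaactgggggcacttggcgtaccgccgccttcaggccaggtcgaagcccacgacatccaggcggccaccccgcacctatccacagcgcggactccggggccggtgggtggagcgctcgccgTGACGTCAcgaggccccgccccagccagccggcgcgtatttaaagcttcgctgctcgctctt
Plk3, chr4:117133964-117134213, minus strand: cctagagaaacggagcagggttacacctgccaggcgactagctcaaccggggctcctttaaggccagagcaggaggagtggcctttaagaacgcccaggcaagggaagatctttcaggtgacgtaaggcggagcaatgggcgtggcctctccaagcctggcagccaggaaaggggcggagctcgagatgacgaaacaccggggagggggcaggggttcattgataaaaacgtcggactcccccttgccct
Cdkn1a p53 site, chr17:29090928-29090947, plus strand: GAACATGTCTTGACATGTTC
Ccng1 decamer, chr11:40755462-40755471, minus strand: GGGCAAGCCT
Bax decamer, chr7:45467090-45467099, minus strand: AGGCAAGCTT
The window of Plk2 held no match to the p53 decamer and 1 to the cAMP response element, 62 to 55 bases before the start, and that of Plk3 held no match to any of the 4. The windows of Cdkn1a, Ccng1 and Bax held the p53 decamer, which 7.16% of 27025 windows hold. Those of Bbc3 and Aen, not called, and of Phlda3, not tested, held none. The decamer thus does not divide called from uncalled genes. The windows of Cdkn1a, Ccng1 and Aen also overlap annotated exons of the same gene in GENCODE M21. That of Cdkn1a was the only one of the 8 with the longer p53 site, present in 0.141% of all windows. The Cdkn1a site lies before the more upstream of 2 RefSeq starts, which are 2790 bases apart. The cAMP response element occurs in 1.60% of windows and the CArG box in 1.41%, in none of the 8. A match here is a description of letters, and no match says only that the letters are not in this window.

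Plk2 encodes a polo-like kinase of centriole duplication that is induced by serum and by p53. It was at 35.5, 35.3 and 37.9 FPKM in libraries labelled shNumb-ctr (replicates 1, 2 and 3), against 23.4, 23.4 and 24.0 FPKM in those labelled shscr-ctr. All shNumb-ctr libraries lay above all shscr-ctr libraries, with no overlap, as in 39.9% of tested genes in one direction or the other. Mean Plk2 was 36.2 ± 1.41 against 23.6 ± 0.317 FPKM (SD, n = 3), a log2 fold change of 0.60 (SE 0.037, 95% interval 0.51 to 0.68, limma adjusted p = 2.01e-04). The Plk2 log2 fold change stayed between 0.57 and 0.62 over 15 alternative settings, with limma adjusted p between 1.66e-04 and 0.00248.

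Plk3, a polo-like kinase of the stress and DNA damage response, was at 7.35, 7.25 and 8.93 FPKM in libraries labelled shNumb-ctr and at 5.03, 5.78 and 6.47 FPKM in those labelled shscr-ctr. The groups did not overlap, but the spread within each was wide against the gap between them. The log2 fold change of Plk3 was 0.39 (SE 0.098, 95% interval 0.16 to 0.61, limma adjusted p = 0.0299), for means of 7.84 ± 0.943 against 5.76 ± 0.724 FPKM (SD, n = 3). The call was lost without shNumb-ctr replicate 1 or 3 or shscr-ctr replicate 1 or 2, with limma adjusted p of 0.0550, 0.0814, 0.0867 and 0.0628, and with no filter on low values (0.0747), in a range of 0.0220 to 0.0867 over all alternatives.

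Plk1, the mitotic kinase of the same family and not a p53-induced gene, moved the other way. It fell to 32.8 ± 0.110 FPKM in libraries labelled shNumb-ctr, against 36.4 ± 1.20 FPKM in those labelled shscr-ctr (SD, n = 3, log2 fold change -0.15, SE 0.034, limma adjusted p = 0.0222). The ratio of Plk2 to Plk1 within a library does not depend on library scaling. It was 1.08, 1.08 and 1.16 in libraries labelled shNumb-ctr, against 0.628, 0.668 and 0.649 in those labelled shscr-ctr. The groups did not overlap, and the two-sided exact permutation p was 0.1, the smallest that 3 libraries against 3 can give. Every shNumb-ctr library lay above every shscr-ctr library in Plk2 and below in Plk1, which fixed that outcome in advance. This ratio and 3 others given here were chosen after the values were seen. Plk4, the master kinase of centriole duplication, was at 4.16 ± 0.0626 against 4.39 ± 0.181 FPKM (SD, n = 3, limma adjusted p = 0.45), and Plk5 was listed at 0.0291 FPKM or less.

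**Figure D1:**
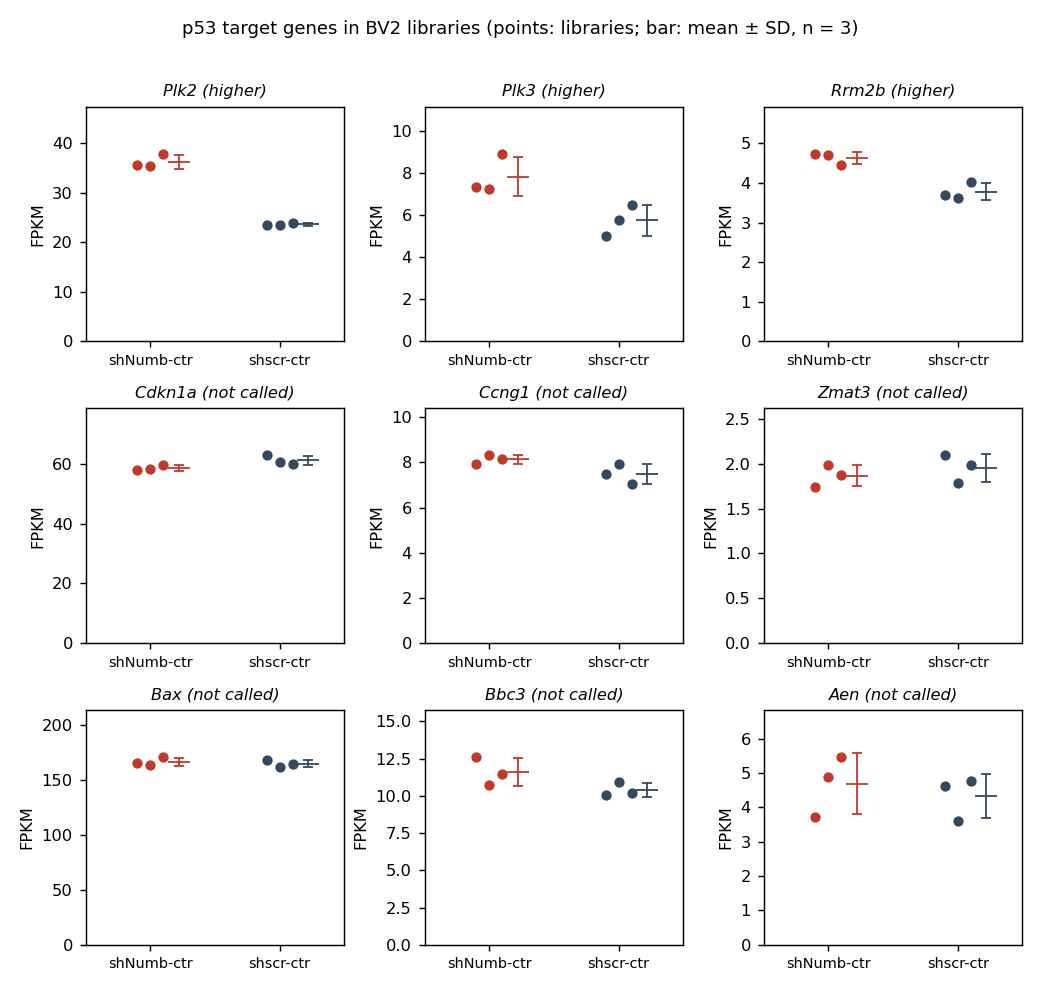
FPKM (linear axes from 0) of the 9 target genes above 0, each point 1 library, with mean ± SD beside it (n = 3). Plk2 shows the widest gap between the libraries labelled shNumb-ctr (35.3 to 37.9) and those labelled shscr-ctr (23.4 to 24.0), while Cdkn1a and Bax sit at nearly the same level in both.

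Rrm2b encodes p53R2, the p53-induced small subunit of ribonucleotide reductase that supplies DNA precursors outside S phase. Its values were 4.74, 4.70 and 4.45 FPKM in libraries labelled shNumb-ctr, against 3.69, 3.62 and 4.02 FPKM in those labelled shscr-ctr. All shNumb-ctr values were higher than all shscr-ctr values, with means of 4.63 ± 0.154 against 3.78 ± 0.212 FPKM (SD, n = 3). The log2 fold change of Rrm2b was 0.24 (SE 0.059, 95% interval 0.10 to 0.37, limma adjusted p = 0.0283). Leaving out any library but shscr-ctr replicate 3 ended the call, with limma adjusted p of 0.0848, 0.0683 and 0.0514 without shNumb-ctr replicates 1, 2 and 3, and 0.0870 and 0.0768 without shscr-ctr replicates 1 and 2. With no filter it ended as well (0.0523). In all, 7 of 14 alternatives ended the Rrm2b call (limma adjusted p 0.0213 to 0.0870).

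The other subunits of the same enzyme fell. Rrm2, the S-phase small subunit, was at 15.6 ± 1.13 FPKM in libraries labelled shNumb-ctr and 18.3 ± 0.490 FPKM in those labelled shscr-ctr (SD, n = 3, log2 fold change -0.22, SE 0.055, limma adjusted p = 0.0290). Rrm1, the large subunit, was at 35.2 ± 0.688 against 38.7 ± 0.871 FPKM (SD, n = 3, log2 fold change -0.13, SE 0.033, limma adjusted p = 0.0258). Per library, the ratio of Rrm2b to Rrm2 was 0.292, 0.290 and 0.312 under the label shNumb-ctr, against 0.196, 0.203 and 0.223 under shscr-ctr. The groups did not overlap (two-sided exact permutation p = 0.1). That was fixed in advance, as every shNumb-ctr library lay above every shscr-ctr library in Rrm2b and below in Rrm2. In both groups the S-phase subunit was the more abundant per transcript length. The calls for Rrm1, Rrm2 and Plk1 were lost in 6, 5 and 5 of 15 alternatives.

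Cdkn1a encodes p21, the inhibitor of cyclin-dependent kinases through which p53 arrests the cell cycle. It was the second most abundant of the 10 genes, at 58.1, 58.4 and 59.9 FPKM in libraries labelled shNumb-ctr, against 63.0, 60.8 and 60.1 FPKM in those labelled shscr-ctr. The shNumb-ctr libraries were all slightly lower, with shNumb-ctr replicate 3 next to shscr-ctr replicate 3. The log2 fold change of Cdkn1a was -0.06 (SE 0.031, 95% interval -0.13 to 0.01, limma adjusted p = 0.209), so the interval covers folds from 0.914 to 1.01 on the log2(FPKM + 1) scale. Over the 6 libraries, the tested genes whose log2 deviations were nearest to those of Cdkn1a were Taf1, Tecr and Ctnna1. Their root-mean-square differences were 0.00744, 0.00979 and 0.0104. None of the 3 was called, but choosing them by likeness to an uncalled gene fixed that in advance.

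Of the p21 relatives, Cdkn1c, which encodes the inhibitor p57, rose to 3.82 ± 0.733 FPKM in libraries labelled shNumb-ctr, against 2.32 ± 0.429 FPKM in those labelled shscr-ctr (SD, n = 3, log2 fold change 0.53, SE 0.132, limma adjusted p = 0.0277). Its level is uncertain, since 26.9% of its transcript windows occur in another annotated gene. Cdkn1b, which encodes p27, was at 6.60 ± 0.566 against 7.23 ± 0.258 FPKM (SD, n = 3, limma adjusted p = 0.235).

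Ccng1, an early p53 target encoding cyclin G1, was at 7.94, 8.31 and 8.15 FPKM in libraries labelled shNumb-ctr and at 7.51, 7.94 and 7.06 FPKM in those labelled shscr-ctr. The groups overlapped at 7.94 FPKM, and the Ccng1 log2 fold change of 0.10 (95% interval -0.02 to 0.23) did not pass (limma adjusted p = 0.201). Its paralog Ccng2, not induced by p53 in the usual account, was at 9.59 ± 1.30 against 11.3 ± 0.441 FPKM (SD, n = 3, log2 fold change -0.22, limma adjusted p = 0.113). Zmat3, a zinc finger protein that binds RNA, was the least abundant gene above 0, at 1.74, 1.98 and 1.87 FPKM against 2.09, 1.78 and 1.99 FPKM in the libraries labelled shscr-ctr. The Zmat3 groups overlapped (log2 fold change -0.04, 95% interval -0.21 to 0.13, limma adjusted p = 0.721). Phlda3, a pleckstrin homology protein that restrains AKT, was listed at 0 in each library, as were 7522 genes in all; its paralog Phlda1 was called higher, at 2.40 ± 0.403 against 1.63 ± 0.0604 FPKM (SD, n = 3, log2 fold change 0.36, limma adjusted p = 0.0324). Phlda1 is uncertain, as other genes hold 33.7% of its windows.

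Bax, the pore-forming protein of mitochondrial apoptosis, was the most abundant target gene. It was at 165.5, 164.2 and 171.1 FPKM in libraries labelled shNumb-ctr, against 168.4, 162.4 and 164.8 FPKM in those labelled shscr-ctr. The groups overlapped in part, with shNumb-ctr replicate 3 above and shscr-ctr replicate 2 below the other libraries, and the interval for the Bax log2 fold change, -0.05 to 0.08, covers folds from 0.966 to 1.06 (log2 fold change 0.01, SE 0.028, limma adjusted p = 0.736). Bbc3, which encodes the BH3-only protein PUMA, was at 12.6, 10.7 and 11.5 FPKM in libraries labelled shNumb-ctr and at 10.1, 11.0 and 10.2 FPKM in those labelled shscr-ctr. Its groups overlapped through shscr-ctr replicate 2, and the log2 fold change of 0.14 for Bbc3 (SE 0.063, 95% interval -0.01 to 0.29) did not pass (limma adjusted p = 0.155). Aen, a nuclease that promotes apoptosis, had the widest spread of the 9 relative to its level, at 3.71, 4.89 and 5.47 FPKM against 4.62, 3.61 and 4.77 FPKM in the libraries labelled shscr-ctr. For Aen the interval of the log2 fold change ran from -0.21 to 0.39 (limma adjusted p = 0.667), and its sign changed when 1 library was left out. Isg20, a related exonuclease gene induced by interferon, rose to 6.69 ± 0.539 FPKM, against 4.74 ± 0.129 FPKM in the libraries labelled shscr-ctr (SD, n = 3, log2 fold change 0.42, limma adjusted p = 0.00505). Isg20l2 fell (log2 fold change -0.20, limma adjusted p = 0.0112). Over all 14 tested paralogs of the target genes 3 were called higher (Isg20, Cdkn1c and Phlda1) and 4 lower (Isg20l2, Plk1, Rrm1 and Rrm2), or 50% called against 18.8% of all tested genes. The calls for Cdkn1c and Phlda1 were lost in 6 and 7 of 14 alternatives.

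Among the proteins that Bax and PUMA act with, BCL-XL is a survival protein encoded by Bcl2l1. Bcl2l1 rose 1.44-fold, with 46.8, 47.9 and 50.8 FPKM in libraries labelled shNumb-ctr against 33.1, 34.7 and 33.0 FPKM in those labelled shscr-ctr. No libraries overlapped (log2 fold change 0.52, SE 0.040, 95% interval 0.42 to 0.61, limma adjusted p = 4.57e-04), and the call for Bcl2l1 held in all 15 alternatives. The ratio of Bax to Bcl2l1 was 3.54, 3.43 and 3.37 in libraries labelled shNumb-ctr, against 5.09, 4.68 and 4.99 in those labelled shscr-ctr (two-sided exact permutation p = 0.1). Of 11 tested BCL2 family genes 3 were higher and 1 lower (36.4% called, against 18.8% of all tested genes). Beside Bcl2l1 the higher ones were Bcl2l11, encoding the BH3-only protein BIM (log2 fold change 0.19, limma adjusted p = 0.0399), and Bcl2a1b (0.32, limma adjusted p = 0.0225). Bcl2a1b is uncertain, since other genes hold 79.2% of its windows. Bmf, another BH3-only gene, was lower (log2 fold change -0.19, limma adjusted p = 0.0259). The calls for Bcl2l11, Bmf and Bcl2a1b were lost in 9, 7 and 3 of 15 alternatives. Pmaip1, which encodes NOXA and is a p53 target too, was at 16.4 ± 0.408 against 14.6 ± 0.929 FPKM (SD, n = 3, limma adjusted p = 0.0589), and Mcl1 at 145.4 ± 1.74 against 141.9 ± 1.58 FPKM (limma adjusted p = 0.346).

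**Figure D2:**
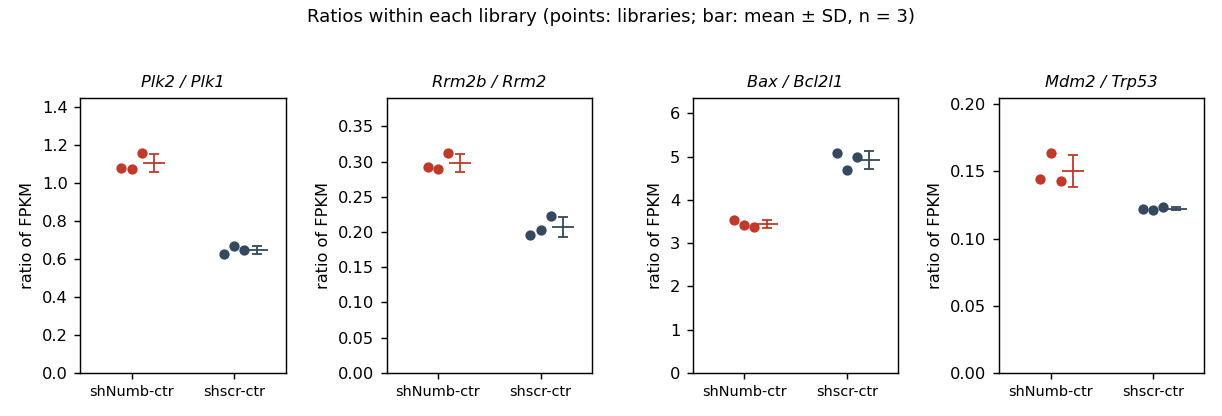
Ratios of FPKM within each library (linear axes from 0; points are libraries, bars mean ± SD, n = 3). Plk2 to Plk1, Rrm2b to Rrm2 and Mdm2 to Trp53 were higher and Bax to Bcl2l1 lower in libraries labelled shNumb-ctr, with no overlap between the groups in any of the 4. Except for Bax to Bcl2l1, this restates the values of the single genes, which did not overlap and moved in opposite directions.

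Levels, which FPKM scales by length, had the same order under both labels: Bax, Cdkn1a, Plk2, Bbc3, Ccng1, Plk3, Aen, Rrm2b, Zmat3 and Phlda3. Bax lay at the 96.6 percentile of mean FPKM over all tested genes, Cdkn1a at 88.9, Plk2 at 75.6 and Rrm2b at 18.2. Ccng1 and Plk3 overlapped in libraries labelled shNumb-ctr and were apart in those labelled shscr-ctr, and Aen and Rrm2b overlapped under both labels. All other neighbours were apart.

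Trp53 was itself abundant, at the 94.0 percentile. It was at 91.4, 92.4 and 95.9 FPKM in libraries labelled shNumb-ctr, against 105.6, 103.3 and 102.7 FPKM in those labelled shscr-ctr. The groups did not overlap, and Trp53 fell by 0.15 on the log2 scale (SE 0.029, 95% interval -0.22 to -0.09, limma adjusted p = 0.0112), a call that held in all 15 alternatives. Mdm2, which p53 induces and which degrades it, was at 13.2, 15.1 and 13.7 FPKM in libraries labelled shNumb-ctr and at 12.9, 12.6 and 12.7 FPKM in those labelled shscr-ctr. These did not overlap either, but Mdm2 did not pass (log2 fold change 0.13, SE 0.053, limma adjusted p = 0.124). The ratio of Mdm2 to Trp53 was 0.150 ± 0.0117 against 0.122 ± 0.000992 (SD, n = 3, two-sided exact permutation p = 0.1). As Mdm2 lay above and Trp53 below in all libraries labelled shNumb-ctr, the groups had to part in this ratio.

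Of the 22 tested genes of p53 and its regulators 3 were lower and 0 higher in limma. At an unadjusted p under 0.05, 8 were lower and 1 higher, but the share of all tested genes at that p was not counted. The median log2 fold change was -0.07, with 17 genes below 0 and 5 above. Over all 10594 tested genes the median was -0.02, with 4647 above 0. The 3 calls are 13.6% of the list, where 10.7% of all tested genes were called lower and 18.8% in either direction. Usp7, the deubiquitinase that protects both Mdm2 and p53, fell to 33.7 ± 0.733 FPKM in libraries labelled shNumb-ctr, against 39.0 ± 0.202 FPKM in those labelled shscr-ctr (SD, n = 3, log2 fold change -0.20, limma adjusted p = 0.00505). Chek2, a kinase that activates p53 after damage, was lower at 11.4 ± 0.563 against 12.9 ± 0.366 FPKM (SD, n = 3, log2 fold change -0.17, limma adjusted p = 0.0450), a call that 11 of 15 alternatives ended (limma adjusted p 0.0399 to 0.129). Mdm4, Ppm1d and Cdkn2a did not pass, with log2 fold changes of 0.10, -0.12 and 0.06 and limma adjusted p of 0.277, 0.111 and 0.260. Cdkn2a, which encodes p16 and the Mdm2 inhibitor ARF from 1 locus, was at 138.1 ± 6.79 against 132.0 ± 1.01 FPKM (SD, n = 3), a gene-level value that does not separate its products. The p53 relatives Trp63 and Trp73 were listed at 0.

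**Figure D3:**
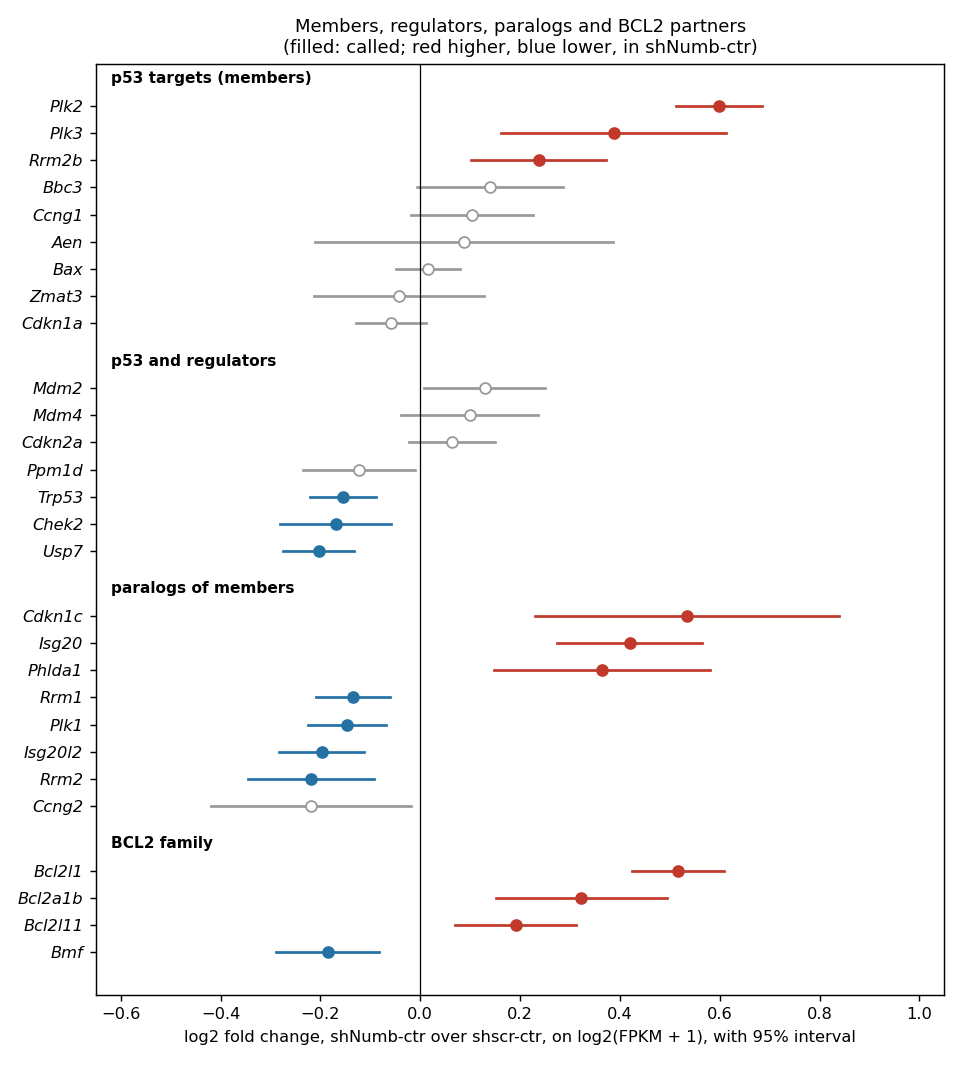
Log2 fold changes of the libraries labelled shNumb-ctr over those labelled shscr-ctr on log2(FPKM + 1), with 95% intervals, for the target genes, p53 and its regulators, paralogs and BCL2 family genes. Plk2 (0.60) and Bcl2l1 (0.52) have narrow intervals far from 0, while Cdkn1a (-0.06) and Bax (0.01) have narrow intervals that include it.

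Beyond the 10 genes, 62 other p53 targets were looked up, of which 48 were tested. In that set 2 were higher and 4 lower (12.5% called, against 18.8% of all tested genes), with a median log2 fold change of -0.02, the same as over all tested genes. Among those of arrest and growth (16 tested), Trp53inp2 was higher (log2 fold change 0.16, limma adjusted p = 0.0408) and Gtse1, a G2 phase protein that binds p53, lower (-0.17, limma adjusted p = 0.0380). Among those of apoptosis (15 tested), the transcriptional repressor gene Bcl6 rose to 11.8 ± 0.230 against 8.99 ± 0.267 FPKM (SD, n = 3, log2 fold change 0.35, limma adjusted p = 0.00234), and Siva1 fell (-0.14, limma adjusted p = 0.0331). Of 17 tested targets of repair and metabolism, Hexim1, an inhibitor of transcription elongation, fell (log2 fold change -0.23, limma adjusted p = 0.00433), as did the epoxide hydrolase gene Ephx1 (-0.13, limma adjusted p = 0.0195). The calls for Trp53inp2, Gtse1, Siva1 and Ephx1 were lost in 8, 9, 10 and 5 of 15 alternatives, and those for Bcl6 and Hexim1 in 0. Classic damage-induced targets such as Fas, Perp, Tnfrsf10b and Eda2r were at 1.02 FPKM or less and were not tested.

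p21 is known to lower mitotic and replication genes by holding cyclin-dependent kinases in check and letting the repressor complex DREAM form. Of 25 such genes 13 were lower and 0 higher in limma (0 higher also at an unadjusted p under 0.05). This is 52% called, where 10.7% of all tested genes were called lower and 8.11% higher, with a median log2 fold change of -0.15, although Cdkn1a itself did not pass. The 6 with the smallest adjusted p were Mybl2 (log2 fold change -0.34), Mcm5 (-0.33), Cdc20 (-0.25), Mcm2 (-0.24), Birc5 (-0.19) and Mcm3 (-0.19), with limma adjusted p of 0.00137, 0.00170, 0.00208, 0.0143, 0.00505 and 0.0151; 23.8% of the windows of Mybl2 are shared, so that its level is uncertain. Plk1 is among the 13. Without shNumb-ctr replicate 1, shNumb-ctr replicate 3, shscr-ctr replicate 1 or shscr-ctr replicate 3, the lower genes numbered 7, 7, 6 and 7. Among 12 cyclin and kinase partners of p21 (33.3% called, against 18.8% of all tested genes), Ccnd1 (cyclin D1) was higher (log2 fold change 0.19, limma adjusted p = 0.0339), and Ccnd2, Ccna2 and Cdk4 were lower (-0.18, -0.17 and -0.11, limma adjusted p = 0.00785, 0.0230 and 0.0311). Ccnd1 and Cdk4 are uncertain at 27.3% and 29.4% shared windows, and their calls were each lost in 8 of 15 alternatives, that of Ccna2 in 4.

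**Figure D4:**
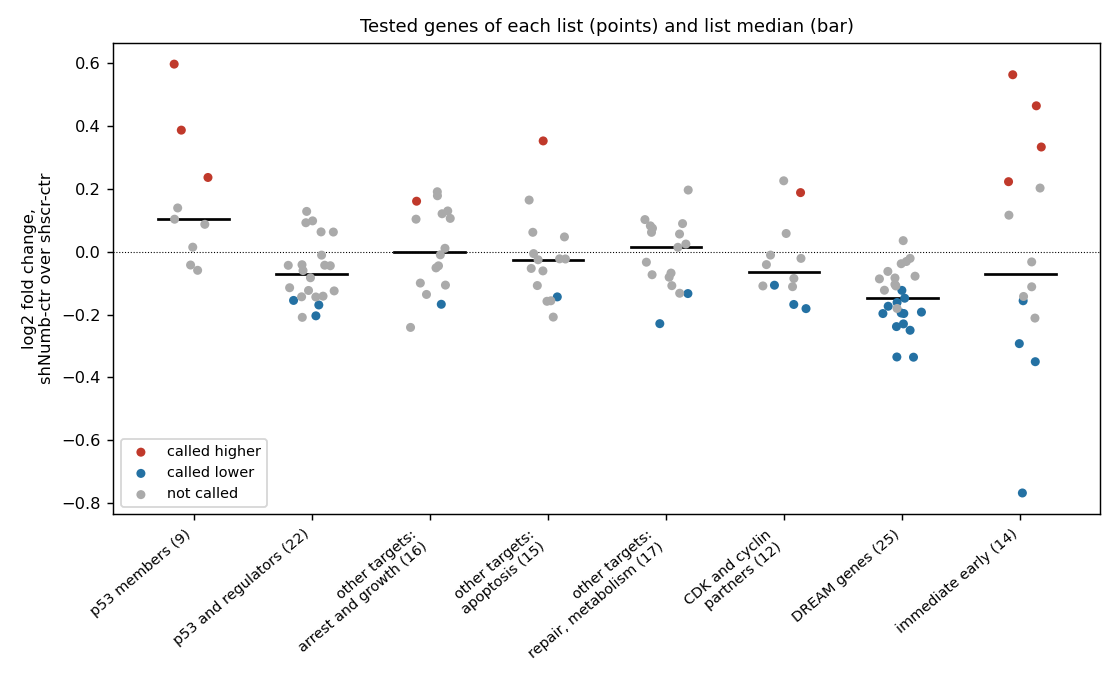
Log2 fold changes (libraries labelled shNumb-ctr over those labelled shscr-ctr) of the tested genes in 8 lists, each point a gene, coloured by call, with the list median as a bar. The 25 DREAM genes lie almost all below 0 (median -0.15), while the 3 lists of other p53 targets scatter around 0.

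Plk2 and Plk3 are also immediate early genes, induced by serum and growth factors. Of 14 tested immediate early genes 4 were higher and 4 lower (57.1% called, against 18.8% of all tested genes). Egr3, Myc, Atf3 and Egr2 rose (log2 fold changes 0.46, 0.56, 0.22 and 0.33, limma adjusted p = 0.00714, 0.01, 0.0124 and 0.0459). Myc (mean 1.35 against 0.591 FPKM) and Egr2 (1.38 against 0.879 FPKM) passed the filter only through the libraries labelled shNumb-ctr. Genes this low could be tested only if high in 1 group, so the 4 higher and the 57.1% include calls that the filter favoured. Dusp1, Fos, Zfp36 and Jun fell (-0.35, -0.77, -0.29 and -0.16, limma adjusted p = 0.0107, 0.0136, 0.0440 and 0.0461). The calls for Egr2, Zfp36 and Jun were lost in 6 of 11, 9 of 15 and 10 of 15 alternatives. Egr2 and Myc had 11 alternatives, as they did not reach the filter in the others. Whether serum or growth factor signalling has any part in the values of Plk2 and Plk3 was not tested. In the list of oxidative and ATF4-driven stress (9 tested, 33.3% called against 18.8% of all tested genes), Ddit3 and Hmox1 were higher (log2 fold changes 0.32 and 0.16, limma adjusted p = 0.0201 and 0.0425) and Ddit4 lower (-0.36, limma adjusted p = 0.00161), while Sesn2, a target of both ATF4 and p53, was at 13.3 ± 0.417 against 14.3 ± 0.345 FPKM (SD, n = 3, limma adjusted p = 0.130). The calls for Ddit3 and Hmox1 were lost in 4 and 9 of 15 alternatives.

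**Figure D5:**
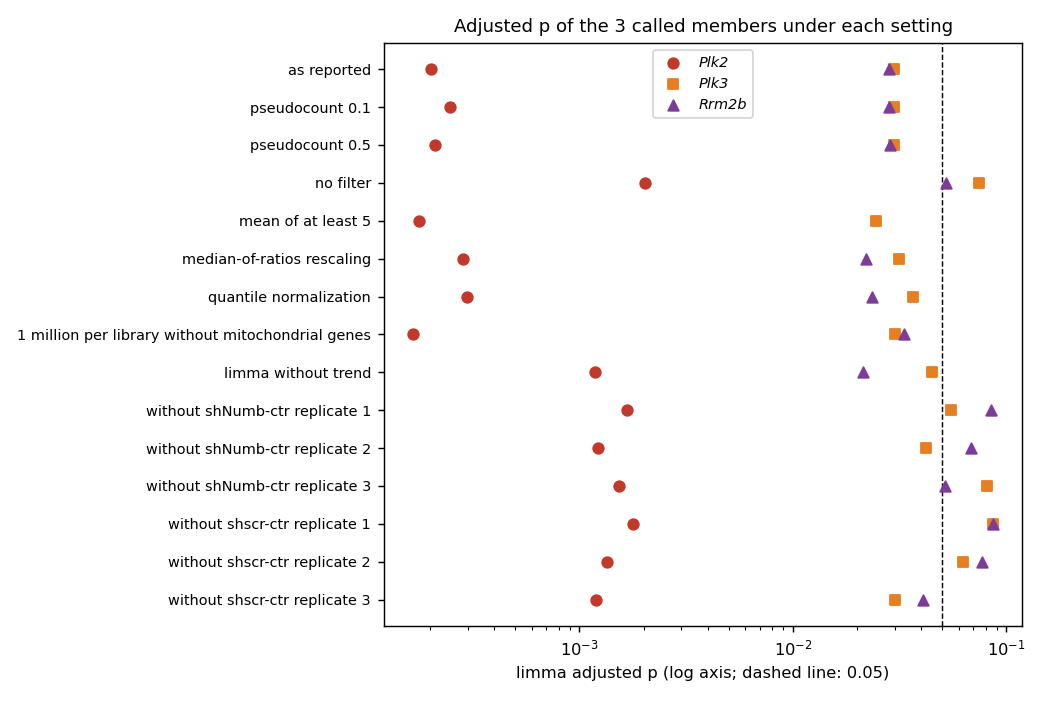
Limma adjusted p (log axis) of Plk2, Plk3 and Rrm2b as reported and under the alternative settings, with a dashed line at 0.05. The setting with the replicate number as a block is not drawn, and Rrm2b lost its call there too (limma adjusted p = 0.0770). The rest of this caption is about the settings drawn. Plk2 stays left of the line throughout, while Plk3 and Rrm2b cross it in several settings that leave out 1 library and with no filter; Rrm2b has no value under the filter on a mean of at least 5.

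No target gene had over 14.2% of its transcript windows in another annotated gene (Bax, with Gm45808), and Rrm2b and Cdkn1a had 10.8% each, in part with genes that overlap them on the opposite strand. Gm45808 was at 0.620 FPKM or less in libraries labelled shNumb-ctr and at 1.88 or less in those labelled shscr-ctr. Whether counting used strand is not given in the sources used here, so reads of opposite-strand partners of Cdkn1a, Rrm2b and Plk3 cannot be told apart from theirs.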

How the data were processed

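The authors deposited 1 value per gene and library, taken here as FPKM that they had scaled by transcript length and library depth. The headers name no unit, and the reading rests on fractional values with library sums of 451077 to 455561; TPM with genes left out cannot be told apart. CASAVA and DESeq2 are named in the submitters' processing notes with no role; the aligner, build and annotation behind the values were not stated. No whole-read steps were seen among low values in the pair of libraries looked at, so depth and counting error are unknown.

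Genes with at least 1 FPKM in at least 3 libraries (10594) were tested as log2(FPKM + 1), shNumb-ctr over shscr-ctr, in limma 3.58.1 (R 4.3.3) with a mean-dependent prior, no covariate, two-sided, with Benjamini-Hochberg adjustment over all tested genes. A fold change on this scale understates the change of low genes. The fit was tested on simulated data. The members and lists were chosen with earlier results of these data known. Named are all 10 target genes, Numb, a fixed set of regulators and paralogs, the called members of each list (at most 6 per direction, by adjusted p) and the 3 genes most like Cdkn1a; Cdkn1b, Plk4, Plk5, Pmaip1, Mcl1, Sesn2 and the genes named as at or near 0 were chosen after their values were seen. Transcript windows of 50 bases, every 10 bases, were compared with all other genes of GENCODE M21 on both strands, and a gene with over 20% shared is called uncertain. Exact permutation tests used Python 3.11.15 with scipy 1.17.1.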

Additional observations from a re-analysis of the deposited data

How the results depend on the processing

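The 9 tested target genes were refitted under 15 settings. These were 2 other pseudocounts, 2 other filters, 3 rescalings, limma without trend, the replicate number as a block, and 6 without 1 library. Rrm2b, Zmat3 and Aen had values in 14, as they did not reach the filter on a mean of at least 5. For genes that are no members the same settings were applied after seeing the data. Of 132 member values 117 kept direction and side of the threshold, 12 lost the call (Plk3 and Rrm2b) and 3 changed sign, all of them uncalled. Target genes called higher numbered 1 with no filter (more genes tested) and 1 to 3 without 1 library. The count of called genes over the series was 964 to 1526 without 1 library. Bax ranged from -0.0029 to 0.029 (log2) and Aen from -0.014 to 0.217 without 1 library, with the sign changed without shNumb-ctr replicate 3 for both (Bax -0.0029, Aen -0.011) and without shscr-ctr replicate 2 for Aen (-0.014); the cause was not tested.

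With the replicate number as a block, 1079 genes and 2 target genes (Plk2, Plk3) were called, Rrm2b having a limma adjusted p of 0.0770. Deviations of same-numbered libraries correlated at 0.0067, 0.012 and 0.047, and 1 of 3 libraries correlated best with its own number. No label says that the numbers mark pairs, and with 3 libraries a group these correlations cannot settle whether they do.

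Other p53 targets called higher numbered 1 to 4 and lower 1 to 4 over the settings. With 3 libraries a group and no depth, small changes of low genes such as Zmat3 and Aen are poorly resolved.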
